A study of Mus musculus with 32 samples.

Results

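Glp1r, Gcgr and Gipr encode the receptors for glucagon-like peptide 1 (GLP-1), glucagon and glucose-dependent insulinotropic peptide, and Dpp4 and Fap encode the related cell surface proteases dipeptidyl peptidase 4 and fibroblast activation protein. These 5 genes were followed in mouse liver through every array probe that carries 1 of their symbols, which gave 6 probes out of 55681 (Glp1r has 2 probes, the others 1 each) and 5 gene names out of 34947. RNA from livers of male C57/BL6 mice, 8 weeks old when the diets began by the methods of the study, was hybridized to 32 one-colour 60-mer arrays, 4 arrays in each of 8 groups. C mice received standard (chow) diet and MCD mice a methionine- and choline-deficient diet, a model of steatohepatitis, for 3 weeks. C+Fc-GLP-1 mice (here treated C) had chow and M+Fc-GLP-1 mice (here treated MCD) had the MCD diet, with Fc-GLP-1 for the last 2 weeks. Each of these groups was sampled when 70% of the liver was removed by partial hepatectomy (before PH) and 2 weeks later with diet and treatment continued (after PH), so the samples after PH come from mice that survived the operation.

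The sources name the drug in different ways, which bears directly on these receptors. The source names of the arrays give Fc-GLP-1, a GLP-1 analogue fused to an antibody Fc part, and the study describes it as an agonist of the GLP-1 receptor, whereas the descriptions of the treated arrays, 4 of their source names and the protocol text name an agonist of both the GLP-1 and the glucagon receptor, given at 4.4 mg/kg per day. The methods of the study instead give a molar dose injected under the skin every other day, so dose and schedule also differ between the sources. The array values do not settle this, and the groups keep the name Fc-GLP-1. The untreated groups of the study received saline, so treatment is compared with vehicle. The labels call the 4 arrays of a group biological replicates without naming animals. The study describes the tissue before PH as that removed in the operation, so mice could have given tissue at both times, but no label ties an array after PH to one before PH. The numbers in the sample titles did not pair them (correlations from -0.047 to 0.0876 over the 16 pairs of arrays before and after PH that share a number), and the samples were taken as unpaired.

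The 3 receptors belong to class B of the G protein-coupled receptors and raise cyclic AMP through the stimulatory G protein. In liver the glucagon receptor of hepatocytes drives glycogen breakdown and gluconeogenesis, while GLP-1 and GIP are known for their action on pancreatic beta cells. DPP4 inactivates both incretins by removing an N-terminal dipeptide, and FAP is a near relative of DPP4 found mainly on activated fibroblasts and stellate cells, with human FGF21 among its substrates.

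On the RefSeq annotation of GRCm38, Gcgr lies at chr11:120529185-120538989, Glp1r at chr17:30901867-30936510 and Gipr at chr7:19156063-19170248. Dpp4 (chr2:62330073-62412315) and Fap (chr2:62500936-62575509) are 88620 bases apart on the same chromosome, and Gcg, the gene of the common precursor of glucagon and GLP-1, lies between them at chr2:62474530-62483653. The probes are placed by the array files on an older build, mm9, for which no annotation was used here, so their exon or UTR is not given. The 2 Glp1r probes are shown whole because they cover nearly the same stretch, chr17:31073256-31073315 for A_55_P2016471 and chr17:31073261-31073320 for A_55_P2132089 (mm9, plus strand), and yet differ at 3 bases of the 55 they share, in capitals here.
A_55_P2016471: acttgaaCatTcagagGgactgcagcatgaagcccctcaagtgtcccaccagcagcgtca
A_55_P2132089: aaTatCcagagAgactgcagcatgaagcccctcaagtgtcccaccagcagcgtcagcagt

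The first 30 bases of the other probes identify what was measured for each gene: A_55_P2056995 for Gcgr (chr11:120400221-120400280, plus strand), A_52_P238468 for Gipr (chr7:19742486-19742545, minus strand), A_51_P467110 for Dpp4 (chr2:62170062-62170121, minus strand) and A_55_P2115225 for Fap (chr2:62339001-62339060, minus strand), all mm9.
Gcgr: agtgttcccatgtgtgttgacatggtccct
Gipr: aatcaactggaaggcaattgggatagacat
Dpp4: caaagcactgacttctaagtaaaaccacag
Fap: cacaatgttttatcacctgttcattgccgg

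A level is log2 of the scanner's background-corrected signal minus the 75th percentile of all probes on that array, so 0 is a probe at that percentile and a difference of 1 is 2-fold. A signal is called well above background by the scanner software. Between 36.3% and 69.2% of probes per array met this mark (median 51.9%), and the lowest level that still met it ranged from -5.73 to -2.44 between arrays, so a dim probe at the same level can be measured on 1 array and not on another. Arrays lay on 5 slides: C and MCD before PH shared 1 slide, the 2 treated groups before PH shared another, the 2 treated groups after PH shared another one, and C and MCD after PH had a slide each, read on another scanner on another day. Every comparison of treated with untreated mice and every comparison of after with before PH therefore runs between slides, where the slide cannot be told apart from the treatment or the time. The comparisons of MCD with chow diet are within a slide, except in untreated mice after PH. In bulk liver, fewer cells of a type and less RNA per cell cannot be told apart. Differences were tested with limma over all 21071 genes that could be tested, with Benjamini-Hochberg adjustment and a threshold of 0.05.

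The glucagon receptor and Dpp4 were measured on all 32 arrays, Fap on 27 and Glp1r on 21 by the probe that was tested (22 by either), while Gipr was above background on only 2. No spot of these 6 probes was saturated. Of the 5 genes, 4 passed the filter on dim probes (Gipr did not), and none of their 48 differences between groups passed the threshold, the lowest adjusted p being 0.107 (limma). At an unadjusted p under the threshold there were 9, and in 6 the 4 arrays of one group did not overlap with those of the other. Over all 21071 tested genes, 3203 to 8101 had such a p per comparison. The lowest number was for treatment on chow diet after PH, the highest for the diet in untreated mice before PH. The 9 of 48 therefore cannot be read as an excess. Overlap is not given over all genes, so the 6 have no such background. Calls past the adjusted threshold also differed widely between comparisons. In untreated mice before PH the MCD diet changed 25.9% of all tested genes, and 12.5% after PH, while 10.6% and 13.1% differed with the diet among treated mice before and after PH. Between treated and untreated mice 2.3% of genes differed on chow and 6.75% on MCD diet before PH, and 2.24% and 6.73% after PH. From before to after PH, 14.3% of genes changed in C mice and 9.57% in MCD mice, and 0.854% and 1.63% in the treated groups on chow and MCD diet. The 95% interval of a difference between 2 groups reached 0.57 to either side for Gcgr (1.48-fold), 0.79 for Dpp4 (1.73-fold), 1.01 for Fap (2.01-fold) and 1.04 for Glp1r (2.06-fold), which sets what 4 arrays per group can show.

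**Figure D1:**
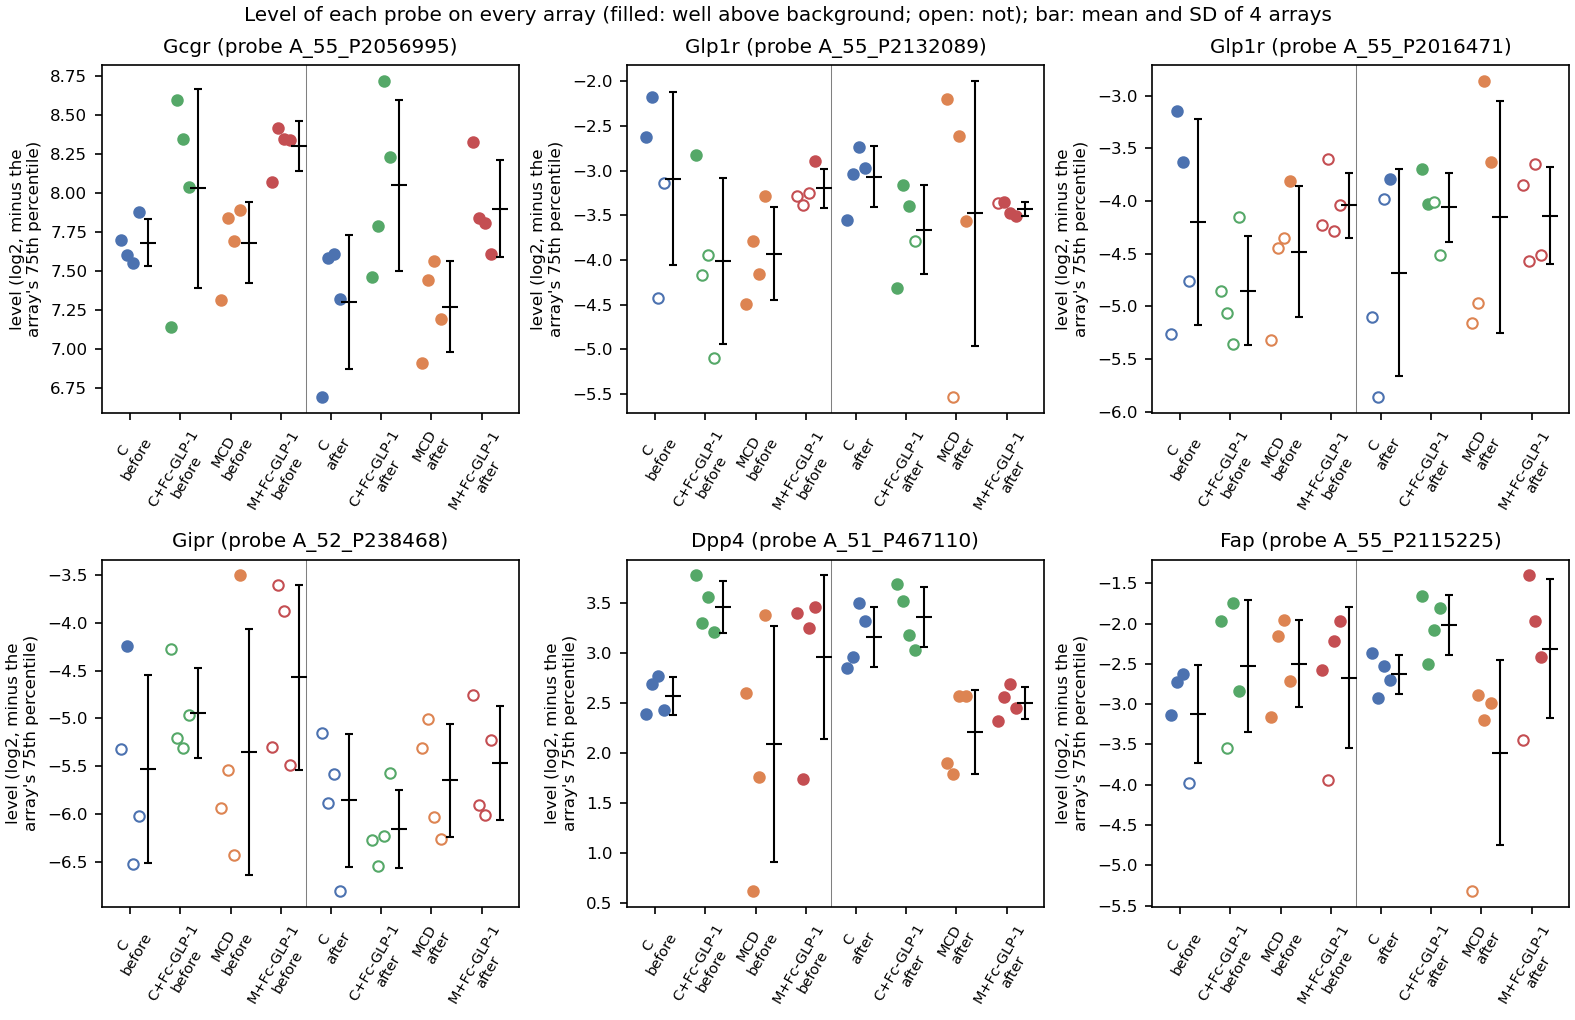
Level of each of the 6 probes (log2, minus the array's 75th percentile; one panel per probe, vertical axes differ) on the 4 arrays of each of 8 groups, before PH to the left and after PH to the right of the vertical line. Filled circles are well above background and open circles are not, and bars give mean and SD (n = 4): Gcgr and Dpp4 are filled on all 32 arrays, Gipr on 2.

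Gcgr, the receptor through which glucagon acts on hepatocytes, had a higher mean on the Fc-GLP-1 arrays than on the untreated arrays of the same diet and time in all 4 comparisons, none of which passed the test alone. In C mice before PH its levels were 7.70, 7.60, 7.55 and 7.88, and in MCD mice 7.31, 7.84, 7.69 and 7.89. In treated C mice before PH they were 7.14, 8.60, 8.35 and 8.04, and in treated MCD mice 8.07, 8.42, 8.35 and 8.34. All 4 treated MCD arrays lay above all 4 MCD arrays, while replicate 1 of the treated C mice lay below every C array. After PH the levels were 6.69, 7.58, 7.61 and 7.32 in C mice, 7.46, 7.79, 8.72 and 8.23 in treated C mice, 6.91, 7.44, 7.56 and 7.19 in MCD mice, and 8.33, 7.84, 7.81 and 7.61 in treated MCD mice. Here too the 2 groups on MCD diet did not overlap. In order of their means the groups were treated MCD before (8.30 ± 0.16), treated C after (8.05 ± 0.55), treated C before (8.03 ± 0.64), treated MCD after (7.90 ± 0.31), C before (7.68 ± 0.15), MCD before (7.68 ± 0.26), C after (7.30 ± 0.43) and MCD after (7.27 ± 0.29; SD, n = 4 each). No 2 neighbours in this order differed by more than their spread.

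The difference between treated and untreated mice was 0.35 ± 0.28 (SE) on chow and 0.61 ± 0.28 on MCD diet before PH, and 0.75 ± 0.28 on chow and 0.62 ± 0.28 on MCD diet after PH. None passed the threshold, with adjusted p = 0.522, 0.175, 0.163 and 0.176 in the same order (limma). The mean of these 4 differences, a summary chosen after the values had been seen, was 0.58 ± 0.14 (95% interval 0.30 to 0.87), which is 1.50-fold (1.23 to 1.82), with adjusted p = 0.00722, when 10.9% of all tested genes passed the same test. It passed with each of the 32 arrays left out in turn (0.53 to 0.66, adjusted p from 0.0015 to 0.0141, limma) and under 6 other settings (0.47 to 0.58). Of these settings only normexp background correction with quantile normalization processed the signal anew (0.47). The others rescaled whole arrays, changed other genes or added a block. In all 4 comparisons the arrays lay on different slides, and after PH also on different scanners. With normexp background correction and quantile normalization the difference on chow diet after PH was 0.27 in place of 0.75, while that on chow diet before PH was 0.81 in place of 0.35 and passed the threshold (adjusted p = 0.0355, limma).

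Markers of hepatocytes, the cells that carry most of this receptor, were read beside it. All 14 could be tested. In the same mean over 4 comparisons 4 of them were called, all higher on the treated arrays. Of all tested genes 10.9% were called there in either direction. The median over the 14 was 0.34 against 0.04 over all genes. On MCD diet before PH their summed level ran from 12.47 to 12.76 in untreated and from 12.90 to 13.55 in treated mice, and after PH from 12.71 to 12.92 and from 12.79 to 13.49. On chow diet it ran from 13.15 to 13.51 and from 12.96 to 13.38 before PH, and from 12.23 to 13.00 and from 12.88 to 13.45 after PH. The part of hepatocyte RNA in the Gcgr difference was not tested.

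The MCD diet made no detectable difference to Gcgr. Its mean difference from chow over the 4 comparisons was 0.02 (95% interval -0.26 to 0.30; 35.9% of genes called), and over the 3 within a slide 0.04 (-0.29 to 0.36; 30.2% called). In untreated mice before PH the difference was 0.00 by the main values (7.68 in both groups) but 0.72 with normexp and quantile normalization, where it passed the threshold (adjusted p = 0.0385, limma). The authors' normalized values also gave 0.72 there, with adjusted p = 0.114. From before to after PH the mean difference over the 4 groups was -0.29 ± 0.14 (interval -0.58 to -0.01), with adjusted p = 0.129 against 21.2% of genes called. It passed without replicate 1 of the treated C mice before PH (-0.37, adjusted p = 0.0388, limma), and was -0.08 (adjusted p = 0.668) with normexp and quantile normalization, where the part from C mice turned from -0.38 to 0.53.

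**Figure D2:**
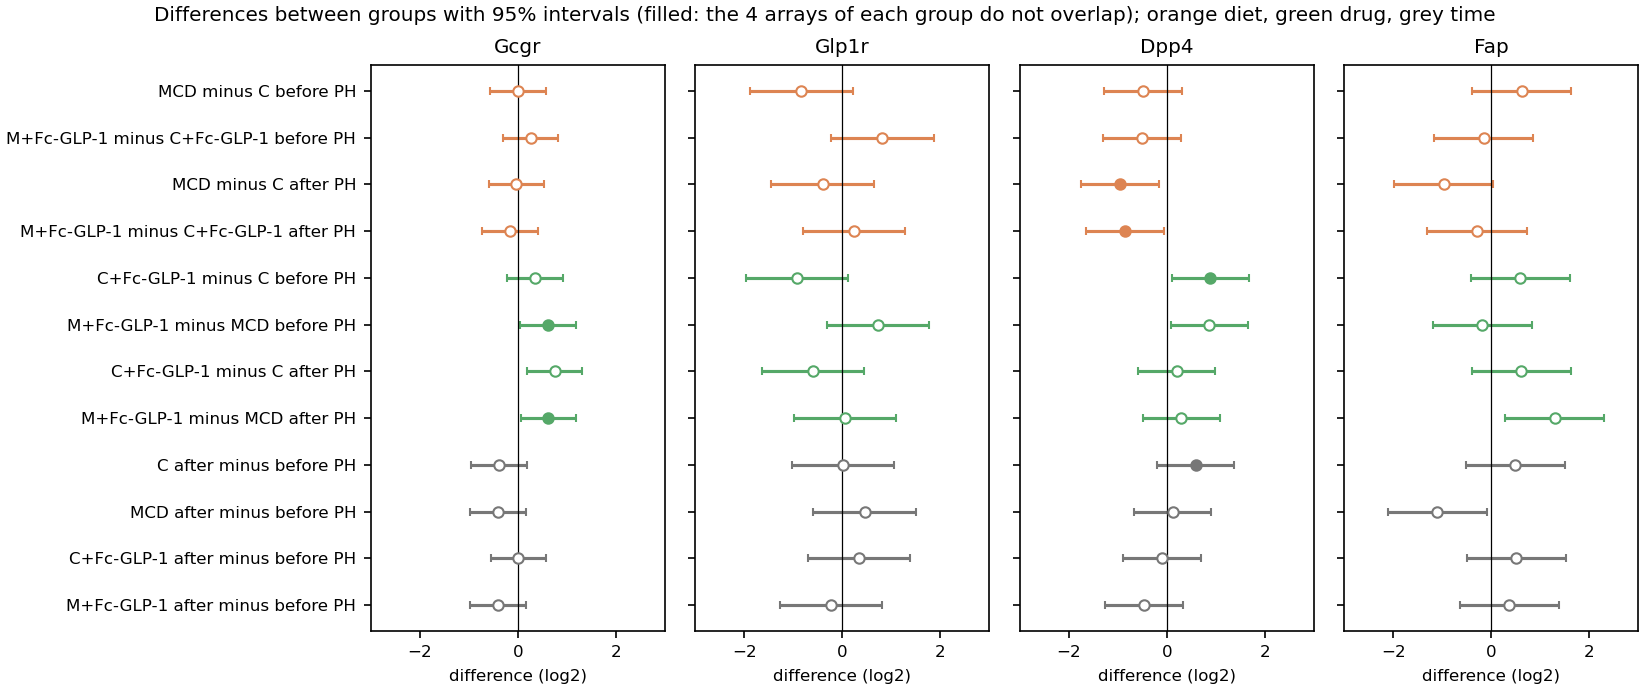
Differences between groups (log2, horizontal axis) for the 4 genes that could be tested, in 12 comparisons, with 95% intervals from limma. Filled symbols mark the 6 comparisons in which the 4 arrays of one group do not overlap with the 4 of the other, which were found for Gcgr and Dpp4 and for neither Glp1r nor Fap.

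Glp1r, the receptor that the drug is named for, was close to background in liver, and its 2 probes did not give 1 answer. Both were above background on 7 of 32 arrays, A_55_P2132089 alone on 14, A_55_P2016471 alone on 1 and neither on 10. Their levels correlated with r = 0.17 (Pearson) over the 32 arrays, which share slides and normalization, although the probes, shown above, have 52 of 55 bases in common. A_55_P2132089 was above background on all 4 arrays of MCD mice before PH and of C mice after PH, on 3 of 4 in the other groups after PH, on 2 of C mice before PH and on 1 in each treated group before PH. It was therefore the probe that could be tested. A_55_P2016471 was above background on at most 2 arrays of any group, and on none of treated C before PH or of treated MCD before or after PH.

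**Figure D3:**
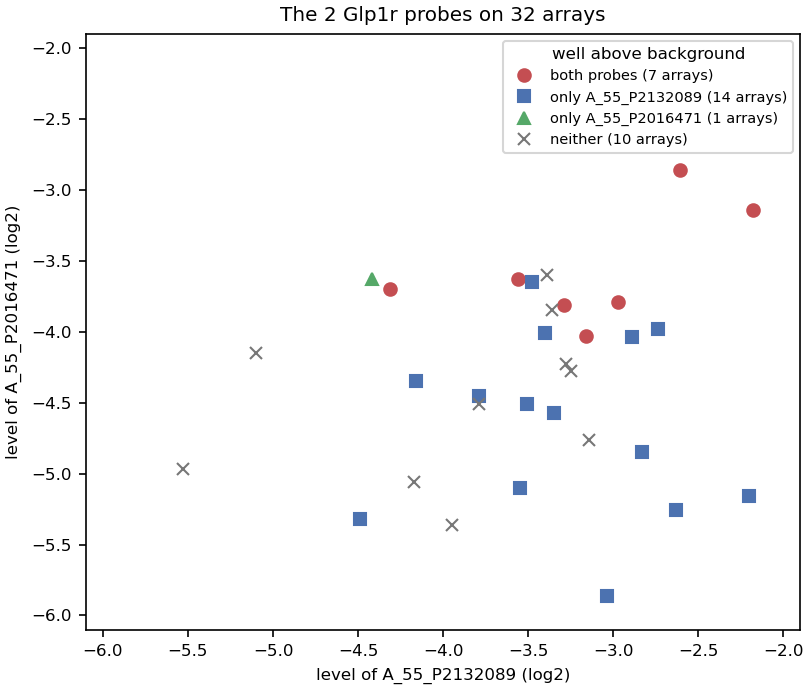
Levels of the 2 Glp1r probes on each of 32 arrays (log2, both axes minus the array's 75th percentile), with symbols for which probe was well above background. Both probes were on 7 arrays (r = 0.17 over all 32).

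Before PH the levels of A_55_P2132089 were -2.63, -2.18, -4.42 and -3.14 in C mice, and -2.83, -4.17, -3.95 and -5.10 in treated C mice. They were -4.49, -3.79, -4.16 and -3.29 in MCD mice and -3.28, -3.39, -3.25 and -2.89 in treated MCD mice. Treated mice were lower by the mean on chow and higher on MCD diet, with groups that overlapped in both. The treated MCD arrays at -3.28, -3.39 and -3.25 were not above background, although 3 MCD arrays at lower levels were. After PH the range was -3.55 to -2.74 in C, -4.31 to -3.16 in treated C, -5.53 to -2.20 in MCD and -3.51 to -3.35 in treated MCD mice, and the groups overlapped in every comparison.

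The difference of Glp1r between treated and untreated mice before PH was, on chow diet, -0.92 ± 0.51 (adjusted p = 0.337, limma) and on MCD diet 0.73 ± 0.51 (adjusted p = 0.403). The difference between these 2 effects, in which an additive effect of the slide cancels, was 1.65 ± 0.72 (95% interval 0.17 to 3.13), with unadjusted p = 0.0297 and adjusted p = 0.166 from limma, where 5.85% of genes passed. It was 0.29 with normexp and quantile normalization and 0.36 with the authors' values. Averaged over the 4 comparisons, treated minus untreated was -0.18 (interval -0.70 to 0.34), MCD minus chow -0.05 (-0.57 to 0.47) and after minus before PH 0.15 (-0.37 to 0.67).

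Gipr, the receptor for the other incretin, was at background. A_52_P238468 was above background on replicate 2 of the C mice before PH (-4.24) and on replicate 4 of the MCD mice before PH (-3.50), the arrays of their slide with the largest shares of probes above background, 69.2% and 57.9%. On the other 30 arrays it was not, over a range from -6.81 to -3.60. It did not pass the filter, so no fold change is given. With the filter on dim probes left out, it was called in 0 of 16 comparisons (limma, lowest adjusted p 0.219).

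Dpp4, the protease that inactivates the incretins, had a lower mean on MCD than on chow diet in all 4 comparisons, and the groups did not overlap after PH. In C mice after PH the levels were 2.85, 2.96, 3.50 and 3.32, against 1.90, 1.79, 2.57 and 2.57 in MCD mice. In treated C mice after PH they were 3.69, 3.52, 3.18 and 3.03, against 2.32, 2.56, 2.69 and 2.45 in treated MCD mice on the same slide. Every array on MCD diet after PH was thus below every array on chow diet after PH. Before PH the C mice had 2.39, 2.69, 2.77 and 2.43, and the treated C mice 3.78, 3.30, 3.56 and 3.21. The MCD mice spread from 0.62 to 3.38 (2.60, 0.62, 1.76 and 3.38), and the treated MCD mice had 3.40, 1.74, 3.25 and 3.46. The array at 1.74, replicate 2, had the smallest share of probes above background of all 32, 36.3%. The groups on MCD diet overlapped with those on chow before PH.

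By means, the order was treated C before (3.46 ± 0.26), treated C after (3.36 ± 0.30), C after (3.16 ± 0.30), treated MCD before (2.96 ± 0.82), C before (2.57 ± 0.19), treated MCD after (2.50 ± 0.16), MCD after (2.21 ± 0.42) and MCD before (2.09 ± 1.18; SD, n = 4 each), and neighbours differed by less than the larger of their SDs. MCD minus chow was -0.48 ± 0.39 (SE) in untreated and -0.50 ± 0.39 in treated mice before PH, and -0.95 ± 0.39 and -0.85 ± 0.39 after PH. None passed the threshold, with adjusted p = 0.374, 0.453, 0.107 and 0.154 (limma). Within the treated mice after PH the same -0.85 passed in a fit of these 8 arrays alone (adjusted p = 0.0431), and with the authors' normalized values it was -0.93 (adjusted p = 0.0176). The authors' values gave -1.10 in untreated mice after PH (adjusted p = 0.0074), between 2 slides.

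The mean of the 4 diet differences, also chosen as a summary after the values had been seen, was -0.70 ± 0.19 (95% interval -1.09 to -0.30), 1.62-fold lower on MCD diet, with adjusted p = 0.00538 against 35.9% of genes called. It passed with each of the 32 arrays left out in turn (-0.80 to -0.57) and under 6 other settings (-0.73 to -0.67). Of these settings only normexp with quantile normalization processed the signal anew (-0.67). Over the 3 comparisons within a slide the mean was -0.61 ± 0.22 (interval -1.07 to -0.16) with adjusted p = 0.0373, when 30.2% of genes passed. This call was lost with 11 of 24 arrays left out (adjusted p up to 0.0793, limma), with normexp and quantile normalization (-0.51, adjusted p = 0.163) and without the filter on dim probes (-0.61, adjusted p = 0.0682). With replicate 2 of the MCD mice before PH left out it was -0.45, and with replicate 2 of the treated MCD mice before PH left out -0.47.

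**Figure D4:**
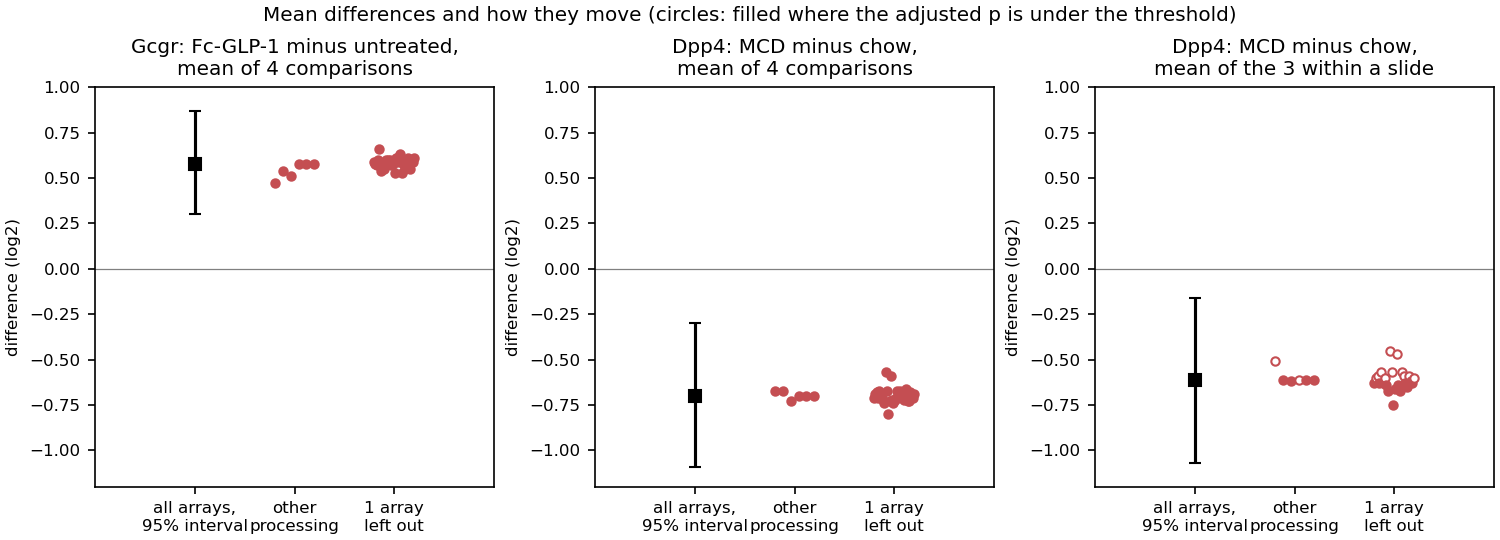
Mean differences (log2) of Gcgr between treated and untreated mice and of Dpp4 between MCD and chow diet: the value from all arrays with its 95% interval (square), under other processing, and with 1 array left out in turn (circles, filled where the adjusted p was under the threshold). The Gcgr value lay between 0.47 and 0.66 and the Dpp4 mean of 4 between -0.80 and -0.57, all filled, whereas the Dpp4 mean within slides was open with 11 of 24 arrays left out.

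Before PH the mean of Dpp4 was higher in treated than in untreated mice on both diets, but not past the threshold. On chow diet the difference was 0.89 ± 0.39 (95% interval 0.10 to 1.68, adjusted p = 0.209, limma), with all 4 treated arrays above all 4 untreated arrays. On MCD diet it was 0.87 ± 0.39 (0.08 to 1.66, adjusted p = 0.167), with overlap. That value passed the threshold without replicate 4 of the MCD mice (1.30, adjusted p = 0.0375) or without replicate 2 of the treated MCD mice (1.28, adjusted p = 0.0323), and was 0.38 without replicate 2 of the MCD mice. After PH the differences were 0.20 ± 0.39 on chow and 0.30 ± 0.39 on MCD diet. The mean of the 4 was 0.56 ± 0.19 (adjusted p = 0.0563), and in all 4 the slides differed. C mice after PH were all above C mice before PH, by 0.59 ± 0.39 (adjusted p = 0.313, limma).

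T cells, of which DPP4 (CD26) is a surface marker, and the other cell types of liver that carry it were read by their markers. Of 14 T cell genes 12 could be tested (not Cd8a or Trat1), and in the mean over the 3 diet comparisons within a slide 1 was higher and 3 lower, with a median of -0.08. These 4 of 12 stand against 30.2% of all genes. Their summed level ran from 6.50 to 7.56 in C and from 4.68 to 5.01 in MCD mice before PH, from 5.89 to 6.37 on chow and from 4.89 to 6.26 on MCD diet in treated mice before PH, and from 5.78 to 6.75 and from 4.57 to 5.75 after PH. The sum was thus lower on MCD diet in untreated mice before PH and in treated mice after PH, and overlapped between the diets in treated mice before PH. In untreated mice before PH the sum and the genes differed in direction. Of the 12, 4 rose and 2 fell (12.2% and 13.7% of all genes), with a median of 0.55. Cd4, the coreceptor of helper T cells, fell by 2.60 ± 0.32 (adjusted p = 1.42e-06, limma). The sum adds intensities, so it follows the brightest genes and not the number that rose or fell. Cd4 had mean levels of 6.70 in C and 4.10 in MCD mice there, when the sum had 6.93 and 4.88. In treated mice after PH 0 of 12 rose and 5 fell (6.5% and 6.56% of all genes), among them Zap70 (-1.77 ± 0.42) and Cd3g (-1.43 ± 0.38), with a median of -0.76. The hepatocyte markers had 0 higher and 3 lower of 14, the cholangiocyte markers 0 of 9 and the endothelial markers 2 higher of 9 in that mean. The part of these cell types in the Dpp4 difference was not tested.

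Fap, which marks activated fibroblasts, was dim, and none of its differences passed the threshold. It was above background on all 4 arrays of C and treated C mice after PH and of MCD mice before PH, and on 3 of 4 in the other groups. Before PH the levels were -3.13, -2.73, -2.63 and -3.98 in C, -1.97, -3.54, -1.75 and -2.84 in treated C, -3.16, -2.15, -1.96 and -2.71 in MCD, and -2.57, -3.94, -2.21 and -1.97 in treated MCD mice. After PH they were -2.37, -2.92, -2.53 and -2.70 in C, -1.66, -2.50, -2.08 and -1.81 in treated C, -5.32, -2.88, -3.20 and -2.99 in MCD, and -3.44, -1.40, -1.97 and -2.42 in treated MCD mice. The group means spanned -3.60 ± 1.15 (MCD after PH) to -2.02 ± 0.37 (treated C after PH), and the groups overlapped in every comparison.

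The largest difference of Fap was between treated and untreated MCD mice after PH, 1.29 ± 0.49 (95% interval 0.28 to 2.30), with unadjusted p = 0.0139 and adjusted p = 0.11 from limma. It was 0.72 (adjusted p = 0.423) without replicate 1 of the MCD mice, whose Fap signal was not above background, and 0.50 with normexp and quantile normalization. The same array moved the difference of MCD mice after and before PH from -1.10 ± 0.49 (adjusted p = 0.164) to -0.53. In untreated mice the diet difference changed from 0.62 ± 0.49 before PH to -0.97 ± 0.49 after PH, a change of -1.59 ± 0.70 (adjusted p = 0.203, limma; 2.88% of genes called), which was -1.02 without that array. Over the 4 comparisons, treated minus untreated was 0.58 ± 0.25 (interval 0.08 to 1.09, adjusted p = 0.126), MCD minus chow -0.20 (-0.70 to 0.31) and after minus before PH 0.07 (-0.44 to 0.57).

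Beside Fap, 18 of 20 genes of hepatic stellate cells and myofibroblasts could be tested (not Lox or Dcn). In untreated mice before PH, where Fap was 0.62 ± 0.49 higher on MCD diet (adjusted p = 0.366), 9 of the 18 rose and 0 fell, when 12.2% of all genes rose and 13.7% fell, and their median was 1.00 against -0.07. Timp1, an inhibitor of matrix proteases, rose by 3.65 ± 0.84 (adjusted p = 0.00214), and the growth factor receptor Pdgfra by 1.96 ± 0.26 (adjusted p = 5.11e-06). Between treated and untreated MCD mice after PH, where the Fap difference was largest, 0 of the 18 passed (3.99% of genes rose and 2.74% fell), with a median of 0.37. Their summed level there ran from 5.45 to 5.89 in MCD and from 5.29 to 7.36 in treated MCD mice. In C mice after PH, on another slide, it ran from 5.62 to 8.18, which overlapped with the MCD mice. The diet difference of Fap between these untreated groups was -0.97 ± 0.49. The part of stellate cells in the Fap values was not tested. Macrophage markers, all 10 tested, had 7 higher and 1 lower on MCD diet in untreated mice before PH and, with treatment on MCD diet, 4 lower before and 3 lower after PH, with 0 higher. Of 8 mesothelial markers 5 could be tested, with 1 higher (Wt1, 2.02 ± 0.75) on MCD diet in untreated mice before PH and 0 lower. The Wt1 call was lost in 6 cases with 1 of 8 arrays left out in turn.

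No member changed its diet or treatment effect past the threshold. All 16 interaction values had adjusted p of 0.166 or above (limma), and 2 had an unadjusted p under the threshold, for Glp1r and Fap as given. Over all tested genes 5.85% passed for the interaction of diet and treatment before PH and 0.0% after PH (0 by limma, with 1877 genes at an unadjusted p under the threshold), 2.88% for the change of the diet effect over time in untreated and 0.0902% in treated mice. For Dpp4 the diet effect after minus before PH was -0.47 ± 0.55 in untreated and -0.35 ± 0.55 in treated mice. For Gcgr the treatment effect on MCD diet minus that on chow was 0.26 ± 0.39 before and -0.12 ± 0.39 after PH, and both signs turned with normexp and quantile normalization (-0.42 and 0.12) and with the authors' values (-0.43 and 0.08).

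The peptide ligands of these receptors were hardly measured in liver. Gcg was above background on 1 of 32 arrays, replicate 2 of the C mice before PH, and Gip on 15, with no difference between groups past the threshold (adjusted p of 0.195 or above in 12 comparisons, limma). Of 9 genes of these peptides and their processing 5 could be tested. Pcsk1n, an inhibitor of a prohormone convertase, fell on MCD diet before PH by 1.10 ± 0.27 (adjusted p = 0.00304), and Ins2 (insulin) was lower by 1.11 ± 0.22 in treated than in untreated MCD mice after PH (adjusted p = 0.00282). The MCD mice after PH alone stood apart for Ins2, with a mean of -0.13 against -1.88 to -1.16 in the other 7 groups, so that it was also higher there than in C mice after PH (1.10 ± 0.22) and than in MCD mice before PH (1.75 ± 0.22). Those 4 arrays have a slide to themselves, from which the group cannot be told apart. For the treatment on MCD diet before PH and for the diet in treated mice after PH 0 of 5 passed (limma). Of 15 markers of pancreas, the organ in which GLP-1 receptors are best known, 7 could be tested, and Cpb1, Pnlip, Amy2b and Iapp were above background on no array. On MCD diet before PH 0 of the 7 rose and Ctrb1 (chymotrypsinogen) fell by 2.40 ± 0.37, with a summed level from 1.53 to 3.20 in C and from 0.45 to 0.82 in MCD mice. With treatment on MCD diet 0 of 7 passed before PH (limma) and Ins2 alone after PH, and between the treated groups after PH Cela1 (an elastase) was higher on MCD diet by 2.12 ± 0.37 and 0 were lower. Of the genes next to Dpp4 and Fap, Slc4a10 was above background on no array and Gm13561 was not analysed here. Ifih1, a sensor of viral RNA, was measured on 32 arrays and was higher in C mice after than before PH (1.00 ± 0.33, adjusted p = 0.0416), where Fap differed by 0.49 ± 0.49 and Dpp4 by 0.59 ± 0.39.

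Among other class B receptors and the RAMP proteins that pair with them, 10 of 15 could be tested. On MCD diet before PH 2 rose and 0 fell, when 12.2% of all genes rose and 13.7% fell. They were Glp2r, the receptor for GLP-2 (1.59 ± 0.46, adjusted p = 0.0126, limma), and Ramp1 (0.76 ± 0.20, adjusted p = 0.00703). Glp2r was near background, with levels from -5.79 to -4.06 in C and from -4.10 to -2.75 in MCD mice. On these C arrays the lowest level well above background ran from -5.12 to -3.94. The Glp2r call was lost with 1 of 8 arrays left out. Ramp3 was higher with treatment on MCD diet before PH (1.09 ± 0.31, adjusted p = 0.0321), when 3.76% of all genes rose and 2.99% fell, and again after PH (2.18 ± 0.31, adjusted p = 9.11e-05). Its levels after PH ran from -2.14 to -1.52 in MCD and from -0.14 to 0.86 in treated MCD mice, with no overlap. Between the treated groups after PH 1 of 10 fell on MCD diet and 0 rose, when 6.5% of genes rose and 6.56% fell. It was Pth1r, the receptor for parathyroid hormone (-0.68 ± 0.23, adjusted p = 0.044, limma). With 1 of 8 arrays left out in turn, the Pth1r call was lost in 7 cases and that of Ramp3 before PH in 5. The calls of Ramp1 before PH and of Ramp3 after PH were kept.

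Of the genes of cyclic AMP signalling below the receptors, a few were called in each direction. Of 33, 28 could be tested. On MCD diet before PH 2 of the 28 rose and 1 fell, when 12.2% of all genes rose and 13.7% fell. The adenylyl cyclase Adcy7 (2.27 ± 0.50) and the phosphodiesterase Pde4b (1.36 ± 0.34) rose, and Prkaca, a catalytic subunit of protein kinase A, fell by 0.91 ± 0.31. With treatment on MCD diet 1 of the 28 was higher and 1 lower at each time. Of all genes 3.76% were higher and 2.99% lower before PH, and 3.99% and 2.74% after PH. With treatment on MCD diet before PH Pde4b was lower (-1.47 ± 0.34, adjusted p = 0.0104) and Adcy9 higher (1.00 ± 0.24, adjusted p = 0.0139), and after PH Rapgef4, a cyclic AMP sensor, was higher (1.03 ± 0.32) and Gna11 lower (-0.72 ± 0.20). Between the treated groups after PH 2 rose and 3 fell on MCD diet, when 6.5% of all genes rose and 6.56% fell. The called genes included Pde4d (1.49 ± 0.32), Adcy6 (1.26 ± 0.36) and Adcy5 (-0.95 ± 0.30). The list's median lay between -0.22 and 0.05 in these 4 comparisons. With 1 of 8 arrays left out in turn, Adcy5 lost its call in 7 cases, Rapgef4 in 6, Prkaca in 5 and Gna11 in 4. Adcy6 and Adcy9 lost theirs in 1 case each, and Adcy7, Pde4b and Pde4d kept theirs.

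Several known hepatic targets of glucagon and cyclic AMP rose on MCD diet at both times, with and without treatment, and some fell before PH. In untreated mice before PH the counts in both directions were near the shares of all genes. Of 26, 22 could be tested (not Pck1, Igfbp1, Nr4a3 or Fbp1). In treated mice after PH 7 rose and 0 fell, when 6.5% of all genes rose and 6.56% fell, with a median of 0.68 against 0.00 over all genes. There the hormone gene Fgf21 rose by 4.52 ± 0.54 (23.02-fold, adjusted p = 1.18e-06, limma), the clock gene Per1 by 3.61 ± 0.57 and the phosphatidate phosphatase Lpin1 by 1.79 ± 0.36. In untreated mice after PH, between 2 slides, 4 rose and 0 fell (12.5% of all genes called), with Fgf21 at 7.09, Per1 at 3.12 and Lpin1 at 1.94. In treated mice before PH 6 rose and 1 fell (10.6% of all genes called). In untreated mice before PH 3 rose and 3 fell (12.2% and 13.7% of all genes), Fgf21 by 4.61 ± 0.54 and Per1 by 1.95 ± 0.57 upwards and the histidine-degrading enzyme Hal by 1.34 ± 0.39 downwards. With treatment on MCD diet 3 were higher and 0 lower before PH (3.76% and 2.99% of all genes), Lpin1 (1.71 ± 0.36), the coactivator of gluconeogenesis Ppargc1a (1.64 ± 0.36) and Sds (1.02 ± 0.30, serine dehydratase), and 1 was higher and 0 lower after PH (3.99% and 2.74%), Ass1 of the urea cycle (0.71 ± 0.22, adjusted p = 0.0472). Gcgr itself did not pass in any of these comparisons. With 1 of 8 arrays left out in turn, Ass1 lost its call in 7 cases and Sds in 6. Per1 in untreated mice before PH lost its call in 1 case, and the other calls named here were kept.

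Relatives of DPP4 and other proteases of peptide hormones could be tested for 23 of 24 genes. Mme (neprilysin), which degrades many peptide hormones, fell on MCD diet, by 1.04 ± 0.34 in untreated mice before PH (adjusted p = 0.0254) and by 1.91 ± 0.34 in treated mice after PH (adjusted p = 0.000283), where its levels ran from 0.04 to 0.93 on chow and from -2.03 to -1.03 on MCD diet. Dpp7, an intracellular dipeptidyl peptidase, fell by 0.97 ± 0.26 and 0.80 ± 0.26 in the same comparisons. Nln rose before PH (0.92 ± 0.31). So 1 of the 23 rose and 2 fell in untreated mice before PH, when 12.2% of all genes rose and 13.7% fell. In treated mice after PH 0 rose and 2 fell, when 6.5% of all genes rose and 6.56% fell. With 1 of 8 arrays left out in turn, Dpp7 after PH lost its call in 6 cases, Nln in 5 and Mme before PH in 4. The calls of Mme after PH and of Dpp7 before PH were kept. With treatment on MCD diet 3.76% of all genes were higher and 2.99% lower before PH, and 3.99% and 2.74% after PH. Of the proteases 0 were higher, Thop1 was lower before PH (-1.70 ± 0.41), and Dpp6 and Dpp10 were lower after PH. For Dpp6 the difference was -3.17 ± 0.95 (adjusted p = 0.0404, limma), but 1 array carried it: the MCD mice after PH ran from -1.33 to 6.52, and without their replicate 2 it was -1.30 ± 0.45 (adjusted p = 0.102). For Dpp10 it was -1.46 ± 0.29, and on chow diet after PH -1.67 ± 0.29. Dpp10 stood apart in the 2 untreated groups after PH (means of -2.40 in C and -2.24 in MCD mice, against -4.30 to -3.68 in the other 6 groups), and it was also higher after than before PH in C (1.68 ± 0.29) and MCD mice (2.05 ± 0.29). Those are the 2 groups read on the other scanner, from which they cannot be told apart. Of 19 genes listed as DPP4 or FAP substrates 10 could be tested, beside the same shares of all genes as for the proteases. In untreated mice before PH 3 rose on MCD diet, Fgf21, the chemokine Ccl5 (1.82 ± 0.35) and Col1a1 (1.69 ± 0.62), and 1 fell, and in treated mice after PH 1 rose and 3 fell, among them the chemokine Cxcl9 (-1.47 ± 0.49) and Ccl5 (-1.14 ± 0.35). With treatment on MCD diet before PH 1 was higher (Igf1, 0.81 ± 0.23) and 2 were lower (Col3a1, -2.03 ± 0.46, and Ccl5, -1.26 ± 0.35). After PH 0 were higher and 1 lower (Ccl5, -1.25 ± 0.35). With 1 of 8 arrays left out in turn, Col1a1 and Cxcl9 lost their calls in 6 cases each and Igf1 in 5. Ccl5 kept its call in untreated mice before PH and lost it elsewhere in 4 or 5 cases, while Col3a1 and Fgf21 kept theirs.

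The genes whose level followed each member most closely over the 32 arrays were taken from 13579 tested genes with an mRNA accession. They included Nadk2 and Fancl for Gcgr (Pearson r = 0.78 for both) and were Twsg1, Sox17 and H2-Ob for Dpp4 (0.76, 0.74 and 0.71), Eogt, Tnfsf10 and Catsper2 for Fap (0.79, 0.73 and 0.72), and Gnaz, Tmem178b and Lhb for Glp1r (0.69, 0.68 and 0.68). The arrays share slides and scaling, so these are descriptions. Over the 8 group means none of these genes stayed among the closest 3. There Ramp2, a partner protein of class B receptors that is named after its value was seen, was the closest to Gcgr (r = 0.99 over 8 means), followed by Zfp24 (0.98) and Esam (0.97). Among the members themselves r over the 32 arrays ran from -0.22 (Fap and Glp1r) to 0.35 (Dpp4 and Fap).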

How the data were processed

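Liver RNA was measured on 32 one-colour arrays, 4 in each of 8 groups named by the labels. The authors deposited the scanner software's processed intensity of each spot, background-corrected within the array, with flags for signals well above background, saturation and outliers, and a table of normalized log2 values. These log2 values deposited by the authors were scaled apart before and after PH (75th percentiles 8.43 and 9.05), so they were used within each set only.

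Spots flagged as outliers were left out, spots of a probe were averaged as log2 processed intensity, and each array was centred on the 75th percentile (in intensity 180.2 to 647.5). Probes that reached the well-above-background mark on each of the 4 arrays in 1 group or more were kept (28932 of 55681), and 21071 genes were each read from their brightest kept probe, named through RefSeq accessions (27656 probes). One linear model over the 8 groups was fitted with limma 3.58.1 (R 4.3.3), giving 12 comparisons, 4 interactions and 4 means over comparisons. The number of arrays limits the precision. The members, gene lists and rules were chosen with earlier results of these data known. The rule for names took the 5 members, Gcg, the neighbours of Dpp4 and Fap, the 3 closest genes to each tested member (1 of them is not reported here), and at most the 3 largest changes past the threshold per list and comparison. On simulated data with 200 of 21071 genes changed in MCD minus C before PH, 27% of changes of 1 and 82% of changes of 2 on the log2 scale were recovered, with 9 calls among unchanged genes. Same-numbered arrays did not deviate together (mean r 0.0173, lowest -0.221 over 112 pairs, and mean r 0.0126 over the 16 pairs before and after PH, of which 0 exceeded 0.1). No genome was used, and no promoter or protein sequences.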

Additional observations from a re-analysis of the deposited data

Results flagged for a closer look

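In 48 groups of 4 arrays (6 probes in 8 groups), 2 arrays stood apart from the other 3 of their group by Dixon's test, which by chance marks about 1 in 20 groups. Replicate 2 of the treated MCD mice before PH had a Dpp4 level of 1.74, against 3.25 to 3.46 on the other arrays of the group (gap over range 0.878). Replicate 1 of the MCD mice after PH had a Fap level of -5.32, not above background, against -3.20 to -2.88 on the others (gap over range 0.869).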

How the results depend on the processing

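Of 766 values of the members under other settings, 714 kept their direction and their side of the threshold, 11 newly passed, 13 no longer passed and 28 changed sign. The count of members past the threshold was 0 in every comparison between groups, and 1 each for the mean effects of treatment (Gcgr) and diet (Dpp4, over 4 comparisons and within slides). With normexp and quantile normalization it was 1 for MCD minus C before PH (Gcgr), 1 for treatment on chow diet before PH (Gcgr), 3 for the mean treatment effect and 0 for the mean diet effect within slides, where Dpp4 was -0.51. Without the filter on dim probes the latter was also 0 (Dpp4 -0.61). The authors' values gave 1 for the diet in untreated and 1 in treated mice after PH (both Dpp4), and a fit of the compared groups alone gave 1 in treated mice after PH; the authors' values give no means over times, as each set was scaled apart. The replicate block gave 2 for the mean treatment effect (Dpp4 with 0.56, adjusted p = 0.0449, limma), but no label says that the numbers pair arrays. A replicate block of the 16 pairs before and after PH, chosen after the data were seen, gave 0 members in each of the 4 comparisons over time and in their mean (lowest adjusted p 0.109, limma). With 1 array left out the count ran from 0 to 1 for treatment on MCD diet before PH, from 1 to 2 for the mean treatment effect, from 0 to 1 for the mean diet effect within slides (Dpp4 from -0.75 to -0.45) and from 0 to 1 for the mean change over time. Values that changed sign were the mean diet effect of Glp1r (0.07 with normexp, -0.16 to 0.12 with 1 array left out) and of Gcgr (-0.01 with the percentile over probes above background, -0.05 to 0.08), the diet effect within slides of Glp1r (-0.08 to 0.20), Gcgr (-0.06 to 0.11) and Fap (-0.05 to 0.20), and the change over time of Dpp4 (-0.09 to 0.14) and Fap (-0.04 to 0.21). Larger ones were the change over time of Gcgr in C mice (-0.38, but 0.53 with normexp) and its interaction of diet and treatment before PH (0.26, but -0.42 with normexp, -0.35 with median centring and -0.43 with the authors' values). Of 76 changes of list genes open to naming in the 4 comparisons described, 37 lost the threshold with at least 1 array left out, and Dpp6 alone moved by over 1.5 times. The causes were not tested.

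Over all genes, the number called depended on the setting: 484 for treatment on chow diet before PH was 2462 with normexp and 37 with only the compared groups, 1423 for treatment on MCD diet before PH was 6324 without the filter, 472 on chow diet after PH was 69 with the authors' values, 1418 on MCD diet after PH was 810 without the filter, and 2295 for the mean treatment effect was 4087 with normexp and 1477 with median centring. The interaction before PH (1232) gave 531 with normexp and 2863 with median centring. Centring on the median moved the median of all genes for MCD minus C before PH from -0.07 to 0.27. Such centring shifts every gene of an array by the same amount, so Gcgr relative to that median had to stay at 0.07. The equal values therefore say nothing of how the Gcgr difference depends on processing. With normexp and quantile normalization Gcgr relative to the median was 0.76 in this comparison, and with the authors' values 0.77. A random block for the slide could not be fitted, because each group lies on 1 slide. Signal over background limits Glp1r, Gipr and Fap most.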
